A study of Mus musculus with 12 samples.

Results

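The genes described here are 10 genes of MHC class I antigen presentation in mouse: the heavy chains H2-K1 and H2-D1, the light chain B2m, the peptide transporter subunits Tap1 and Tap2, the loading factor Tapbp, the immunoproteasome subunits Psmb8, Psmb9 and Psmb10, and the regulator Nlrc5. They were chosen by name, and all 10 were found among the 15366 genes of the deposited expression table. The table holds 12 RNA-seq libraries of LSK cells, the lineage-negative, Sca-1-positive, Kit-positive stem and progenitor cells sorted from bone marrow, with 3 libraries in each of 4 genotype groups of untreated C57BL/6 mice. The double lesion group carried a human KDM6B transgene under Vav regulatory sequences, Vav Cre and homozygous floxed Tet2. The KDM6B OE group carried the Vav human KDM6B transgene, with no Cre named in its label. The Tet2 KO group carried Vav Cre and homozygous floxed Tet2, and the Vav Cre group, the control, carried the Cre alone. Vav sequences drive expression across blood cells, so neither the transgene nor the deletion was restricted to LSK cells. Ages are not given in the labels, and no label states that replicate libraries are different mice. The p-values therefore rest on library-to-library spread, which may be partly technical.

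Class I molecules display peptides from inside the cell to CD8 T cells. Proteins are cut by the proteasome, in which the immuno subunits Psmb8, Psmb9 and Psmb10 can replace the constitutive catalytic subunits Psmb5, Psmb6 and Psmb7. The peptides enter the endoplasmic reticulum through the transporter formed by Tap1 and Tap2, and Tapbp, called tapasin, holds the empty heavy chain and B2m close to it while a peptide is loaded. Interferon-gamma signalling raises most of these genes, and Nlrc5 is a transactivator that acts on class I promoters through a conserved upstream module. In blood stem and progenitor cells class I is expressed without infection.

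Of the 10 genes, 7 lie within the MHC region of chromosome 17, and their positions are given on GRCm38, the assembly also called mm10, from the GENCODE M21 annotation. H2-K1 (ENSMUSG00000061232.16) occupies chr17:33996017-34000347 on the minus strand and H2-D1 chr17:35262730-35267499 on the plus strand. Tap1 (chr17:34187553-34197225, plus) and Psmb9 (chr17:34181987-34187764, minus) lie head to head with overlapping first exons, followed by Psmb8 (chr17:34197721-34201454, plus) and Tap2 (chr17:34203527-34216321, plus). Tapbp occupies chr17:33915899-33929292 on the plus strand. Outside that region, B2m lies at chr2:122147686-122153083 on the plus strand, Psmb10 at chr8:105935735-105938444 on the minus strand and Nlrc5 at chr8:94434356-94527272 on the plus strand.

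Promoter sequences are shown for the class I chains and for the start shared by Tap1 and Psmb9, because the genes are usually treated as one co-regulated set and these windows show which elements they have in common. Each sequence is the 250 bases before the RefSeq start on GRCm38.p6, 5′ to 3′ on the strand of the gene, and capitals mark matches on either strand to 6 motifs.
H2-K1 (chr17:34000348-34000597, minus strand): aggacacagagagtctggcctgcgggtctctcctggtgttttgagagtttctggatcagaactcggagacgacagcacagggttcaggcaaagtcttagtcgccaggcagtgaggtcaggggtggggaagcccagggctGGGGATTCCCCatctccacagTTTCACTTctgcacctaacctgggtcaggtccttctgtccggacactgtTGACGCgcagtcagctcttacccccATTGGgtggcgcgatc
H2-D1 (chr17:35262844-35263093, plus strand): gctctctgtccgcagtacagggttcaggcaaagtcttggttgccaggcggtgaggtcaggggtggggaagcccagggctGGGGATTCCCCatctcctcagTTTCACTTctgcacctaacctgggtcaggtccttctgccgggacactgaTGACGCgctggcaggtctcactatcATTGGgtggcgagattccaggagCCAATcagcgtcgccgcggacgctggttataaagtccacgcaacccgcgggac
B2m (chr2:122147437-122147686, plus strand): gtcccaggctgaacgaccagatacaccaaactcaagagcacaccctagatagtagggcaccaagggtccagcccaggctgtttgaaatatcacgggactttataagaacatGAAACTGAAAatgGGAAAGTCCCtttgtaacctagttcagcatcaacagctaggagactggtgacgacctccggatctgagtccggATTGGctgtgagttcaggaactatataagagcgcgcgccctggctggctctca
Tap1 (chr17:34187306-34187555, plus strand): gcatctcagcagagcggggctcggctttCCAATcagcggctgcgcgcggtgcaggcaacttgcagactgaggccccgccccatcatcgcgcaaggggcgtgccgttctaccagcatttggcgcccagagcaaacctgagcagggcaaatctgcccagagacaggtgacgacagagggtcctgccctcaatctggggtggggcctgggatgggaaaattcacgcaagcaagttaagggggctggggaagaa
The motifs searched were the IRF core AANNGAAA, the full interferon-stimulated response element GAAANNGAAA, which always contains an IRF core, the gamma-activated site TTCNNNGAA, the NF-kB consensus, the CCAAT box and the core of the X2 box, TGACGC. H2-K1 and H2-D1 held an NF-kB match, an IRF core, an X2 core and a CCAAT box in the same order and at the same spacing. H2-D1 held a further CCAAT box at -53. The IRF core started 90 bases before the start in H2-K1 and 150 bases before it in H2-D1. H2-K1 had 2 RefSeq starts and the first listed was used, so its distances depend on that choice. B2m held a full response element with its first base at -139, an NF-kB match at -126 and a CCAAT box at -53. The windows of Tap1 and Psmb9 shared 225 bases, since their starts lie 226 bases apart on opposite strands, and the only match in either was the same CCAAT box. Among the 8 members with a RefSeq window (Tap2 and Nlrc5 were not in the table used), the IRF core was found in 3, the NF-kB consensus in 3, the X2 core in 2, the full response element in 1 (B2m), the gamma-activated site in 1 (Psmb8) and CCAAT in 6. Of 27025 mouse promoter windows of the same length, 21.6% held the IRF core, 4.78% the NF-kB consensus, 6.14% the X2 core, 3.04% the full response element, 7.18% the gamma-activated site and 34.5% CCAAT. A match describes letters in a window and is not a measured binding site.

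Libraries held 21935022 to 26263370 reads assigned to genes, and values are given as CPM, counts scaled by the authors to an effective library size. In the check of the labels, Tet2 was at 26.5 to 37.2 CPM in double lesion, 64.9 to 87.6 CPM in KDM6B OE, 24.1 to 31.6 CPM in Tet2 KO and 66.2 to 97.1 CPM in Vav Cre, and mouse Kdm6b was at 7.79 to 12.5 CPM in the 6 transgenic libraries and 5.46 to 7.91 CPM in the other 6. The 9 LSK markers summed to 2172 to 3337 CPM and were lowest in Vav Cre replicate 2, where the erythroid markers found in the table summed to 187 CPM against 31.1 to 105 CPM in the other 11 libraries. Transcripts of Y-linked genes were present in 4 libraries, double lesion replicates 1 and 3, Tet2 KO replicate 1 and Vav Cre replicate 1, and in no KDM6B OE library. The Vav Cre libraries were also the most scattered group, with a median SD across genes of 0.28 on the log2 scale, against 0.15 in double lesion, 0.15 in KDM6B OE and 0.21 in Tet2 KO.

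All 10 members were expressed in every library, over a wide range of levels per length. As median CPM per kilobase of annotated exon over the 12 libraries, B2m stood at 2734 and H2-K1 at 873, followed by Psmb8 at 172, H2-D1 at 155, Psmb10 at 133, Tap2 at 92.2, Tapbp at 84.7, Psmb9 at 66.2, Tap1 at 40.8 and Nlrc5 at 6.39. The 12-library ranges of B2m (2338 to 3906 CPM per kilobase), H2-K1 (786 to 973) and Nlrc5 (3.39 to 7.91) overlapped with no neighbour in this order, whereas each pair of neighbours from Psmb8 to Tap1 overlapped. The light chain and H2-K1 thus had the highest levels per length of the 10 in all 12 libraries, and H2-D1 was well below H2-K1 in each of them. Of the 50-base stretches of the annotated transcripts, 9.63% in H2-K1 and 12.8% in H2-D1 also occur in other genes, most often in the class I genes H2-Q10 (5.18% of H2-K1) and H2-Q1 (5.87% of H2-D1), so reads could be split between them and their levels are uncertain to that extent.

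The central comparison asked whether the combined lesion shifted class I presentation relative to Vav Cre cells. In double lesion cells 3 of the 10 genes changed: Tapbp was higher, and the immunoproteasome subunits Psmb8 and Psmb10 were lower. The heavy chain H2-K1 and the light chain B2m did not pass the test, and for H2-K1 the 95% interval ran from -0.14 to 0.32 on the log2 scale. Calls were made with limma on log2(CPM + 1) at a Benjamini-Hochberg adjusted p under 0.05 over 13046 genes. In this comparison 14.9% of all genes tested were called, 7.34% higher and 7.58% lower, so 3 of 10 members stands against a background of 1947 genes called. The median log2 difference of the members was 0.21 and that of all genes tested was 0.05. All members' values by library are shown in the plot of CPM by group.

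**Figure D1:**
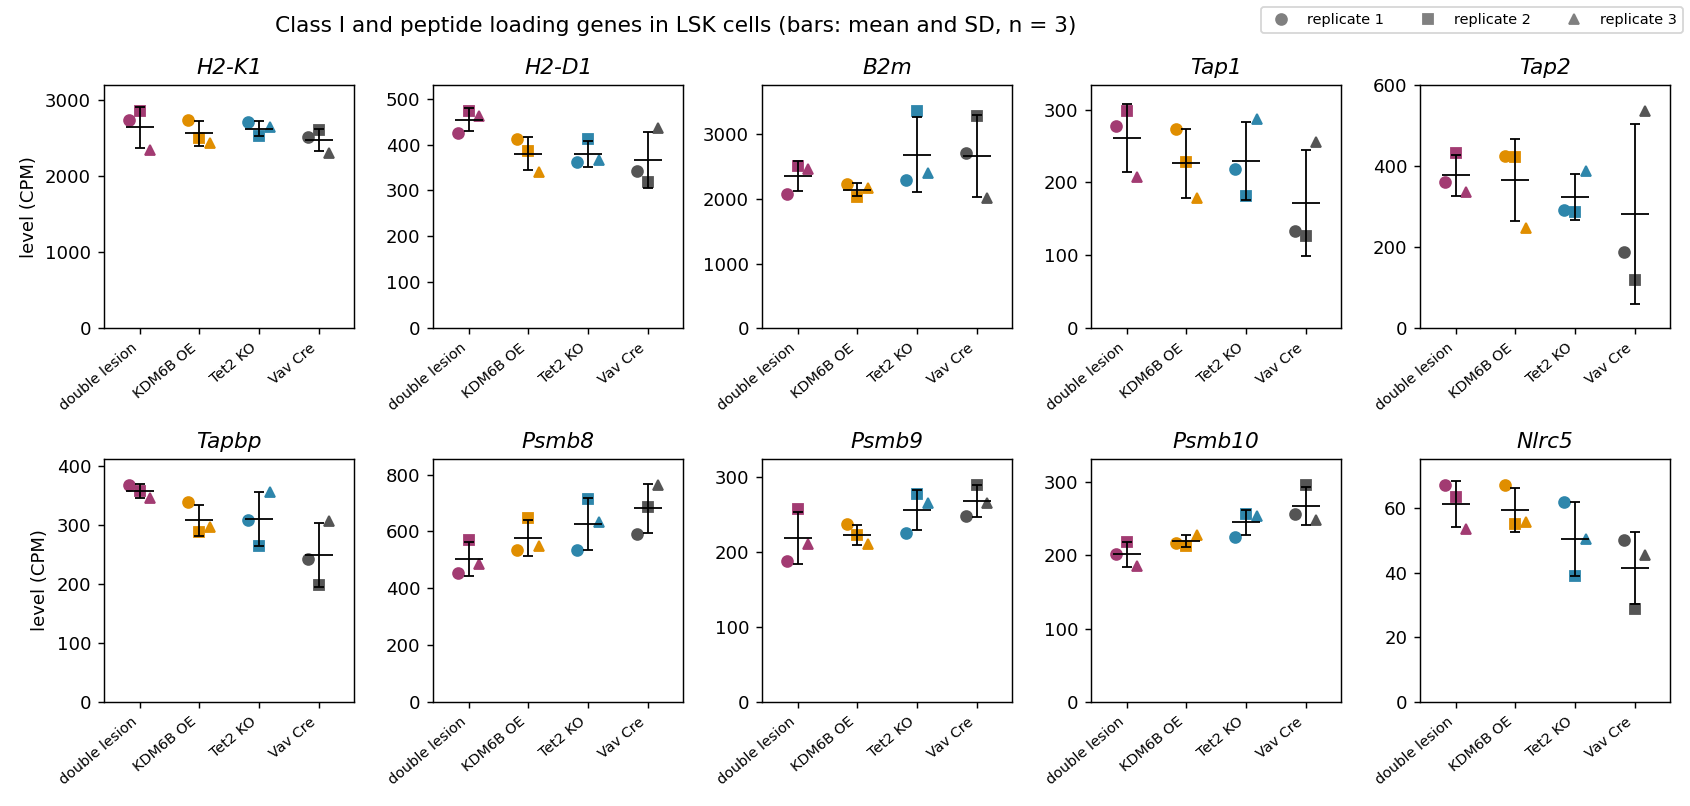
Levels in CPM (vertical axes, from 0) of the 10 genes in each of the 12 libraries, by genotype group; symbols mark replicates, and the horizontal line and bar are the mean and SD of 3 libraries. The double lesion libraries lie above all Vav Cre libraries for Tapbp and Nlrc5 and below all of them for Psmb8 and Psmb10, and Vav Cre replicate 3 stands above the other Vav Cre libraries for Tap1, Tap2 and Tapbp.

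H2-K1, the K locus heavy chain, had 2740, 2859 and 2342 CPM in double lesion, 2743, 2502 and 2443 CPM in KDM6B OE, 2712, 2526 and 2646 CPM in Tet2 KO, and 2515, 2606 and 2311 CPM in Vav Cre. The groups overlapped throughout, and the highest library was 1.24 times the lowest, the narrowest span of the 10 genes. Its log2 difference in double lesion was 0.09 ± 0.11 (SE, adjusted p = 0.584, limma).

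H2-D1, the D locus heavy chain, had 426, 473 and 463 CPM in double lesion, 412, 386 and 341 CPM in KDM6B OE, 362, 413 and 366 CPM in Tet2 KO, and 343, 319 and 435 CPM in Vav Cre. Double lesion was above every single-lesion library, but Vav Cre replicate 3 lay among the double lesion values. The difference of double lesion from Vav Cre was 0.32 ± 0.12 on the log2 scale and missed the threshold (adjusted p = 0.0815, limma). Without Vav Cre replicate 3 it was 0.46 (adjusted p = 0.00888, limma).

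B2m, the light chain that all class I heavy chains pair with, had 2079, 2507 and 2470 CPM in double lesion, 2236, 2029 and 2165 CPM in KDM6B OE, 2300, 3360 and 2403 CPM in Tet2 KO, and 2711, 3281 and 2010 CPM in Vav Cre. The highest values were in replicate 2 of Tet2 KO and of Vav Cre, and the lowest of all was Vav Cre replicate 3, so the groups overlapped. The double lesion difference was -0.16 ± 0.18 on the log2 scale (adjusted p = 0.569, limma), with an interval of -0.54 to 0.22, and turned to 0.15 with a length and GC trend removed (adjusted p = 0.299, limma).

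Tapbp was the member called higher. It had 368, 358 and 345 CPM in double lesion, 338, 288 and 297 CPM in KDM6B OE, 309, 265 and 356 CPM in Tet2 KO, and 242, 199 and 306 CPM in Vav Cre. Every double lesion library was above every Vav Cre library, and the mean was 357 ± 11.8 CPM in double lesion against 249 ± 53.8 CPM in Vav Cre (SD, n = 3 each). The log2 difference was 0.54 ± 0.15 (SE, adjusted p = 0.0277, limma). Of the 50-base stretches of Tapbp, 20.3% also occur in Gm19412, which overlaps it on the opposite strand, and the library kit does not mark strand, so reads of the pair could not be told apart.

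The transporter subunits that work beside Tapbp gave less certain values. Tap1 had 278, 298 and 208 CPM in double lesion, 273, 228 and 178 CPM in KDM6B OE, 219, 182 and 287 CPM in Tet2 KO, and 134, 127 and 255 CPM in Vav Cre. Tap2 had 362, 432 and 335 CPM in double lesion, 424, 422 and 248 CPM in KDM6B OE, 292, 287 and 389 CPM in Tet2 KO, and 189, 120 and 536 CPM in Vav Cre. For both genes Vav Cre replicates 1 and 2 were the lowest of the 12 libraries, while Vav Cre replicate 3 overlapped with the lesion groups for Tap1 and was the highest of all for Tap2, a span of 4.45 times. The double lesion differences were 0.66 ± 0.25 for Tap1 (adjusted p = 0.0886, limma) and 0.70 ± 0.39 for Tap2 (adjusted p = 0.236, limma). Leaving out Vav Cre replicate 3 gave 0.98 for Tap1 (adjusted p = 0.00466, limma) and 1.31 for Tap2 (adjusted p = 0.00263, limma), in a fit that called 3585 genes. With a length and GC trend removed, the difference was 0.26 for Tap1, 0.28 for Tap2, 0.19 for H2-D1 and 0.23 for Nlrc5, none of them called.

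Psmb8, the immuno counterpart of Psmb5, had 454, 570 and 486 CPM in double lesion, 534, 648 and 547 CPM in KDM6B OE, 534, 715 and 632 CPM in Tet2 KO, and 591, 687 and 764 CPM in Vav Cre. All double lesion libraries were below all Vav Cre libraries, and the difference was -0.43 ± 0.14 on the log2 scale (adjusted p = 0.0466, limma). Of its 50-base stretches, 11.6% also occur in Gm20496, which overlaps it on the opposite strand, so this value too is uncertain.

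Psmb10, the immuno counterpart of Psmb7, had 201, 218 and 185 CPM in double lesion, 216, 212 and 228 CPM in KDM6B OE, 225, 256 and 253 CPM in Tet2 KO, and 256, 296 and 248 CPM in Vav Cre. Again the double lesion libraries were all below the Vav Cre libraries, with a mean of 201 ± 16.7 CPM against 267 ± 25.4 CPM in Vav Cre (SD, n = 3 each). The difference was -0.40 ± 0.10 (SE, adjusted p = 0.0223, limma). None of its 50-base stretches occurs in another annotated gene.

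Psmb9, the immuno counterpart of Psmb6, had 188, 257 and 211 CPM in double lesion, 237, 223 and 211 CPM in KDM6B OE, 226, 277 and 266 CPM in Tet2 KO, and 248, 290 and 266 CPM in Vav Cre. Double lesion replicate 2 lay above Vav Cre replicate 1, so those groups overlapped, and the difference of -0.30 ± 0.12 did not pass (adjusted p = 0.112, limma).

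Nlrc5, the class I transactivator, had 67.1, 63.3 and 53.4 CPM in double lesion, 67.2, 55.1 and 55.8 CPM in KDM6B OE, 61.9, 38.9 and 50.3 CPM in Tet2 KO, and 50.2, 28.8 and 45.4 CPM in Vav Cre. The double lesion and KDM6B OE libraries were all above the Vav Cre libraries, whose lowest value was in replicate 2. The double lesion difference was 0.58 ± 0.21 and missed the threshold over all genes (adjusted p = 0.0697, limma). It passed without Vav Cre replicate 1, at 0.74 (adjusted p = 0.0456, limma), and without Vav Cre replicate 3, at 0.67 (adjusted p = 0.0424, limma).

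These calls depended on the control libraries and on the fit. With only the double lesion and Vav Cre libraries in the model, Tapbp, Psmb8 and Psmb10 all missed the threshold (adjusted p = 0.0772, 0.0933 and 0.0858, limma), and the number of members called ran from 0 without double lesion replicate 1, double lesion replicate 3 or Vav Cre replicate 2 to 6 without Vav Cre replicate 3, with 1 left without double lesion replicate 2. Of the 12 fits that each left out 1 library, Tapbp passed in 7, Psmb8 in 3 and Psmb10 in 9, and Psmb8 also missed with edgeR, with no filter, with equal totals and with a term for Y-linked transcripts (adjusted p = 0.053, 0.0568, 0.0664 and 0.0579). Differences also followed transcript length: the median over genes in double lesion against Vav Cre was -0.13 for transcripts of up to 2557 bases, 0.11 for those up to 4209 bases and 0.15 for longer ones, and with a length and GC trend removed Tapbp was at 0.19 (adjusted p = 0.142, limma), while Psmb8 at -0.42, Psmb10 at -0.32 and also Psmb9 at -0.53 passed (adjusted p = 0.0351, 0.022 and 0.0261, limma). Psmb8, Psmb10, B2m, H2-K1 and H2-D1 have transcripts of 860 to 2102 bases, and that of Nlrc5 has 7578 bases.

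Markers of other blood cells were compared in the same libraries, since sorted fractions can hold other cells and, in bulk RNA, fewer cells of a type and less RNA per cell cannot be told apart. Summed markers in double lesion and Vav Cre were 80.0 to 108 and 80.8 to 88.9 CPM for B cells, 490 to 610 and 449 to 567 CPM for monocytes and macrophages, 448 to 494 and 354 to 508 CPM for dendritic cells, and 2666 to 5241 and 1779 to 4255 CPM for neutrophils and their precursors. For T and NK cells the sums were 250 to 277 CPM in double lesion and 273 to 359 CPM in Vav Cre. Most of that was Nkg7, at 230 to 259 CPM in double lesion and 263 to 343 CPM in Vav Cre. Cd4 was at 2.42 to 3.69 and 0.0424 to 1.98 CPM, and Cd8a at 1.48 to 2.57 and 0.0879 to 1.23 CPM. The other T and NK markers overlapped between those groups. For erythroid cells the sums were 31.1 to 66.5 CPM in double lesion and 36.4 to 187 CPM in Vav Cre. In Tet2 KO replicate 2, which had the highest B2m value, B cell markers summed to 182 CPM, against 64.0 to 108 CPM elsewhere. Its monocyte and macrophage sum of 674 CPM was also the highest, and its dendritic cell sum of 284 CPM the lowest. Of that dendritic sum, 276 CPM was the LSK marker Flt3, which was lowest in this library. Itgax and Zbtb46 were also lowest there, at 0.0926 and 0.324 CPM, while Xcr1 was at 6.85 CPM. No marker found in the table was at 0 in all 12 libraries. The part of these cells in the class I values was not tested.

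Each single lesion group was then set against Vav Cre. KDM6B OE has no Cre named, so in its comparison the transgene and the absence of the Cre cannot be told apart. None of the 10 passed in KDM6B OE against Vav Cre with limma, edgeR or DESeq2, where 0.598% of all genes were called with limma, 78 genes with edgeR and 737 with DESeq2; 3 members (Tapbp, Psmb10 and Nlrc5) had an unadjusted p under 0.05. Their log2 differences were 0.33 ± 0.15, -0.28 ± 0.10 and 0.54 ± 0.21 (adjusted p = 0.216, 0.149 and 0.164, limma). In Tet2 KO against Vav Cre none passed with the same 3 tools, 0.0307% of all genes were called with limma, 4 genes with edgeR and 160 with DESeq2, and the member with an unadjusted p under 0.05 was Tapbp at 0.33 ± 0.15 (adjusted p = 0.353, limma). Both sets of values share the Vav Cre libraries, and both are shown with the double lesion in the plot of log2 differences. Without Vav Cre replicate 3, KDM6B OE had 3 members called, Tap1 at 0.77, Tap2 at 1.23 and Tapbp at 0.49, and Tet2 KO had 1, Tap2 at 1.08; the same fits called 1934 genes in KDM6B OE and 307 in Tet2 KO, against 78 and 4 with all libraries. Same-numbered Tet2 KO and Vav Cre libraries deviated together, and with the replicate number as a block Tet2 KO against Vav Cre had 1 gene and no member called.

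**Figure D2:**
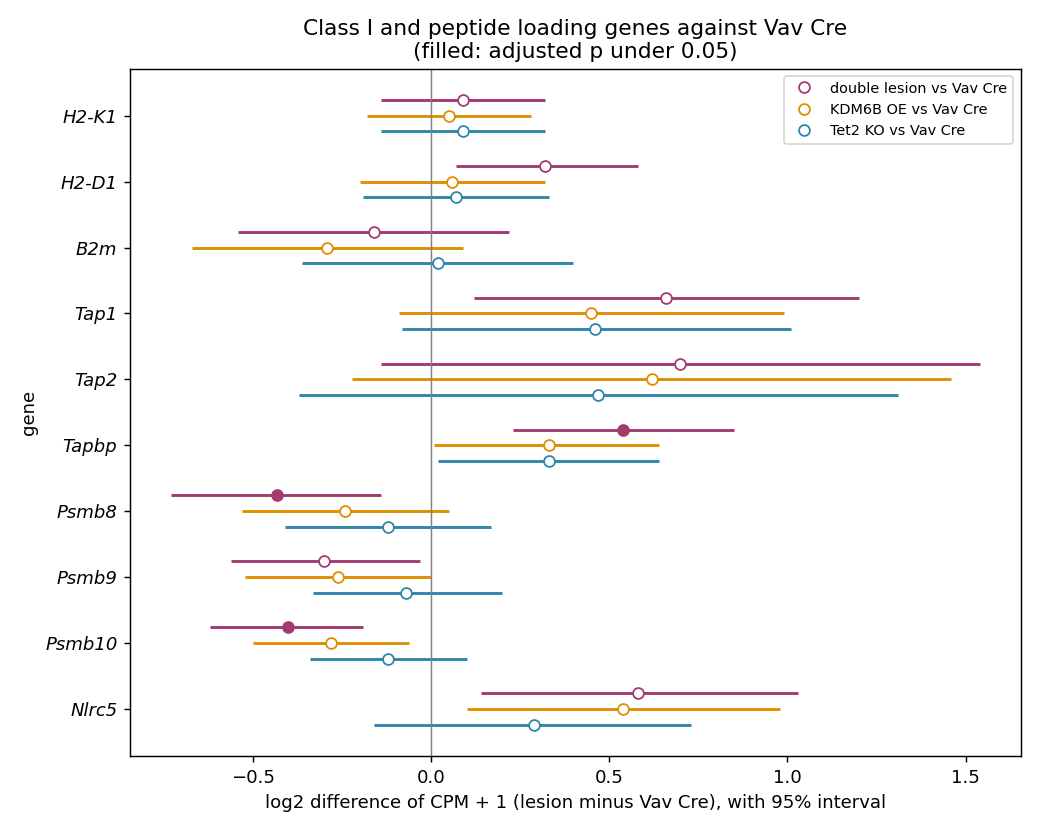
Log2 differences of CPM + 1 (horizontal axis, lesion minus Vav Cre) with 95% intervals for the 10 genes, in double lesion, KDM6B OE and Tet2 KO; filled points have an adjusted p under 0.05. The filled points are Tapbp at 0.54, Psmb8 at -0.43 and Psmb10 at -0.40, all in double lesion, and the 3 lesion groups share the same Vav Cre libraries.

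Groups without overlap were counted in the same 3 comparisons. Against Vav Cre, double lesion was wholly higher for 2 members (Tapbp and Nlrc5) and wholly lower for 2 (Psmb8 and Psmb10), where 16.4% of all genes were wholly higher and 16.4% wholly lower. KDM6B OE was wholly higher for 1 member (Nlrc5) and wholly lower for 2 (Psmb9 and Psmb10), against 11.6% and 10.9% of all genes. Tet2 KO was wholly higher or lower for 0 members, against 6.87% and 5.7% of all genes. With so few members, these shares lie near those of all genes.

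The double lesion group was also set against each single lesion, and the 2 factors were tested over all libraries. Against KDM6B OE, 0 members and 0 genes (0%) passed with limma, and edgeR called 0 and DESeq2 20 genes but no member; 771 genes had an unadjusted p under 0.05, H2-D1 among them at 0.26 ± 0.12. Against Tet2 KO, 0.215% of genes and no member passed with limma, and no member passed with edgeR or DESeq2; Psmb8 at -0.31 ± 0.14 and Psmb10 at -0.28 ± 0.10 had an unadjusted p under 0.05. The interaction, which asks whether the 2 lesions together differ from the sum of each alone, was called for 0 members and 0 genes (0%) with limma, 0 genes with edgeR and 5 genes with DESeq2; 578 genes and no member had an unadjusted p under 0.05, and the interval for Tap2 was -1.58 to 0.80. Over the 6 transgenic libraries against the other 6, 4.35% of genes were called and 1 member, Psmb10 at -0.28 ± 0.07 (adjusted p = 0.0453, limma). That call was kept in 2 of the 12 fits that each left out 1 library, those without Tet2 KO replicate 1 and Vav Cre replicate 3, and missed with edgeR (adjusted p = 0.0518). Vav Cre is in the second set of 6 and KDM6B OE has no Cre named, so transgene and Cre are partly mixed there. In double lesion against KDM6B OE, floxed Tet2 and the Cre likewise cannot be told apart. The interaction also holds the Cre difference, as does, in part, the comparison of floxed Tet2 libraries that follows. Over the 6 floxed Tet2 libraries against the other 6, 0.207% of genes and no member passed with limma, edgeR or DESeq2; Tapbp at 0.27 ± 0.10 had an unadjusted p under 0.05 (adjusted p = 0.25, limma).

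Across the 12 libraries the members did not vary as 1 set, as the plot of correlations shows. Tap1 correlated with Tapbp (Pearson r = 0.91) and with Tap2 (0.90), and Tapbp with Nlrc5 (0.81). The immunoproteasome subunits correlated with each other at 0.83 for Psmb8 and Psmb9, 0.82 for Psmb9 and Psmb10 and 0.75 for Psmb8 and Psmb10. Between these blocks r was negative, down to -0.79 for Psmb10 and Nlrc5. H2-K1 had r = 0.03 with H2-D1, although their promoter windows share an NF-kB match, an IRF core, an X2 core and a CCAAT box. The highest H2-K1 library was only 1.24 times the lowest, which leaves little variation to correlate. Tap1 had r = -0.27 with Psmb9, although the windows before their starts share 225 bases. These values describe 12 points from 4 genotypes that share scaling and preparation, with no test. They were not corrected for transcript length, which is 2898 to 7578 bases for Tapbp, Tap2, Tap1 and Nlrc5. It is 860 to 1907 bases for B2m, Psmb10 and Psmb8, while Psmb9 has 2884 and H2-D1 2102 bases. The part of length in the blocks was not tested.

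**Figure D3:**
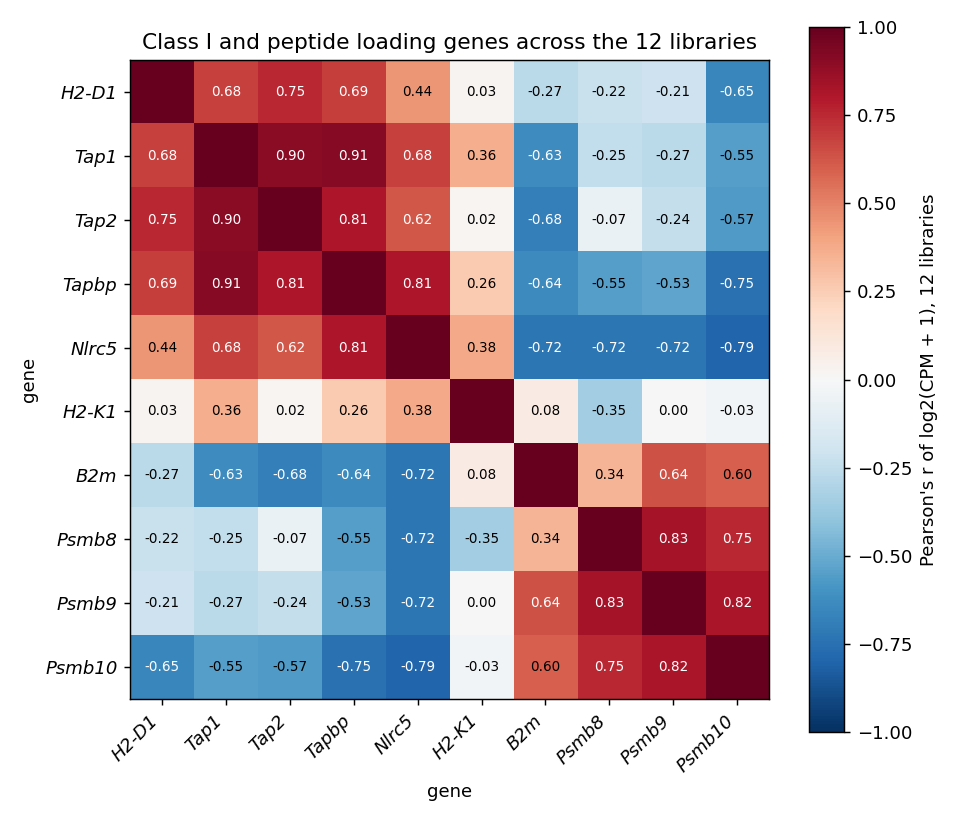
Pearson correlation of log2(CPM + 1) for each pair of the 10 genes over the 12 libraries (both axes, genes; colour, r from -1 to 1). H2-D1, Tap1, Tap2, Tapbp and Nlrc5 correlate positively with one another, as do B2m, Psmb8, Psmb9 and Psmb10, and r between the blocks is negative. The values are not corrected for transcript length.

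The immunoproteasome subunits were set against the constitutive subunits whose place they take, since a ratio within a library does not depend on its scaling. Such a ratio still holds any trend with transcript length. All 14 constitutive subunits listed had negative log2 differences in double lesion against Vav Cre, with a median of -0.56, and 10 of them fell, where 7.58% of all genes were called lower. With a length and GC trend removed the median was -0.35 and 9 fell. Psmb3 was at -0.76 ± 0.16 (adjusted p = 0.013, limma), Psmb5 at -0.69 ± 0.16 (0.0181), Psmb1 at -0.60 ± 0.15 (0.0207) and Psmb6 at -0.58 ± 0.14 (0.0183). Psmb7 did not pass at -0.49 ± 0.17 (0.0675). The count was 0 without double lesion replicate 1 or with only the compared groups, 4 without double lesion replicate 2, 6 without double lesion replicate 3, 3 without Vav Cre replicate 2, whose constitutive subunits were the highest (Psmb5 at 206 CPM against 127 and 135 CPM in the other Vav Cre libraries), and 14 without Vav Cre replicate 3. No subunit passed in KDM6B OE or Tet2 KO against Vav Cre with limma.

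The log2 ratio of Psmb9 to Psmb6 was -0.39, -0.18 and -0.39 in double lesion, -0.28, -0.52 and -0.78 in KDM6B OE, -0.50, -0.62 and -0.36 in Tet2 KO, and -0.61, -0.72 and -0.46 in Vav Cre. Every double lesion library was above every Vav Cre library, and the exact two-sided permutation p of 0.1 is the smallest that 3 against 3 libraries can give. The transcript of Psmb9 has 2884 bases and that of Psmb6 has 966 bases, and differences followed transcript length as given above. The ratios were taken without the length and GC trend removed, and the part of length in them was not tested. The mean log2 ratio of Psmb8 to Psmb5 was 2.41 ± 0.08 in double lesion and 2.15 ± 0.43 in Vav Cre (SD, n = 3 each; exact permutation p = 0.4), and that of Psmb10 to Psmb7 was 0.86 ± 0.23 in double lesion and 0.78 ± 0.24 in Vav Cre (exact permutation p = 0.6). Over all 15 ratio tests the adjusted exact permutation p ran from 0.694 to 0.775. No ratio test passed, and with 3 against 3 libraries none could.

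**Figure D4:**
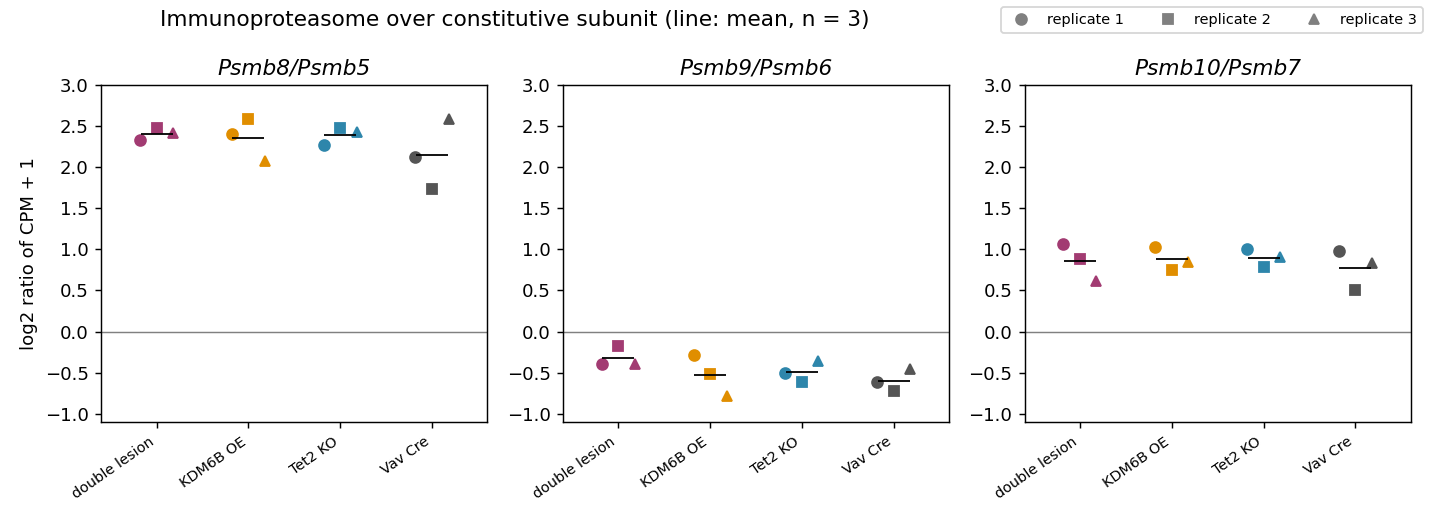
Log2 ratio of CPM + 1 (vertical axes) of each immunoproteasome subunit over its constitutive counterpart in the 12 libraries, by genotype group; symbols mark replicates and lines the mean of 3. Psmb9/Psmb6 is higher in the 3 double lesion libraries (-0.39 to -0.18) than in the 3 Vav Cre libraries (-0.72 to -0.46), while the other ratios overlap between those groups. The ratios are not corrected for transcript length.

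Genes around the 10 were read from lists of the pathway, against the same background of 14.9% called in double lesion against Vav Cre. Of 10 tested genes among 21 other class I heavy chains and related genes, 3 rose and none fell, with a median log2 difference of 0.47. Cd1d1, which presents lipids, rose by 1.02 ± 0.15 (adjusted p = 0.0036, limma), H2-Q5 by 0.73 ± 0.13 (0.00551) and H2-T24 by 0.62 ± 0.18 (0.0405). Over the 6 floxed Tet2 libraries against the other 6, Cd1d1 was at 0.72 ± 0.11 (adjusted p = 0.0212, limma). It was the 1 gene of the list called there, and the count was 0 or 1 without single libraries. H2-Q5 had 52.8, 52.4 and 49.9 CPM in double lesion, 48.9, 39.7 and 40.5 CPM in KDM6B OE, 42.0, 39.9 and 41.4 CPM in Tet2 KO, and 34.0, 29.3 and 28.9 CPM in Vav Cre, so all lesion libraries were above the Vav Cre libraries, and H2-Q5 can share reads with related class I genes.

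Of 10 genes of loading, trimming and the proteasome activator, 1 rose and 2 fell. Erap1, the aminopeptidase that trims peptides in the endoplasmic reticulum, rose by 0.39 ± 0.10 (adjusted p = 0.0237, limma), and the proteasome activator subunits Psme1 at -0.37 ± 0.11 (0.0457) and Psme2 at -0.47 ± 0.15 (0.0476) fell. Those falls were not called by edgeR; the list's count was 0 or 1 without single double lesion libraries, 0 without Vav Cre replicate 1 or 2, 1 without any KDM6B OE library or Tet2 KO replicate 1 or 3, and 6 without Vav Cre replicate 3. With totals made equal the list had 3 members higher and none lower. The chaperone Hspa5 rose over the 6 transgenic libraries against the other 6 by 0.59 ± 0.14 (adjusted p = 0.0422, limma) and was at 0.54 ± 0.20 in double lesion against Vav Cre (0.0853).

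Among 23 regulators of class I genes, 5 rose and none fell. Stat3 rose by 0.77 ± 0.13 (adjusted p = 0.00551, limma), Stat2 by 0.73 ± 0.18 (0.0204) and the NF-kB subunit Rela by 0.67 ± 0.20 (0.0413). Of 20 interferon-stimulated genes, 5 rose and none fell, among them the GTPases Igtp at 0.68 ± 0.18 (adjusted p = 0.0258, limma), Gbp2 at 0.61 ± 0.15 (0.0209) and Irgm1 at 0.56 ± 0.14 (0.0204), and the RNA sensor Ddx58 at 0.57 ± 0.12 (0.0142). The medians were 0.18 for the regulators and 0.37 for the interferon-stimulated genes. With only the compared groups, 2 regulators and 0 interferon-stimulated genes passed, and without any 1 double lesion library the counts were 2 regulators and 1 or 2 interferon-stimulated genes. Without Vav Cre replicate 2 they were 2 and 3. Without Vav Cre replicate 3 they were 8, of which 1 was lower, and 9, of which 2 were lower. There were 3 regulators without KDM6B OE replicate 1 or 2 or Vav Cre replicate 1. With a length and GC trend removed, 3 regulators were higher and 1 lower, with a median of 0.05. In that fit 4 interferon-stimulated genes were higher and 1 lower, with a median of 0.31.

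Class II genes were read beside class I. Of 9 genes of class II presentation, 5 rose and none fell in double lesion against Vav Cre, with a median of 1.20. H2-Aa rose by 1.80 ± 0.34 (adjusted p = 0.00773, limma), H2-Eb1 by 1.72 ± 0.35 (0.0105), the class II transactivator Ciita by 1.69 ± 0.40 (0.0183) and the invariant chain Cd74 by 1.36 ± 0.42 (0.0441). Ciita had 12.4, 9.78 and 5.76 CPM in double lesion, 4.58, 4.96 and 2.30 CPM in KDM6B OE, 8.19, 3.01 and 5.92 CPM in Tet2 KO, and 4.12, 1.19 and 1.58 CPM in Vav Cre, so Tet2 KO and double lesion overlapped. The count was 1 without double lesion replicate 1, 3 without double lesion replicate 2 or Vav Cre replicate 2, and 2 with only the compared groups. Against Vav Cre the list's median was 0.80 in Tet2 KO, with 9 positive differences, and 0.04 in KDM6B OE, with 5. Over the 6 floxed Tet2 libraries against the other 6, 2 of the 9 rose and 0 fell, with a median of 0.94. There 0.207% of all genes were called, and the list's count ran from 0 to 4 without single libraries. B cells and dendritic cells express class II strongly; the values of their markers stand above, and their part in these differences was not tested. Over the 86 tested genes of these 6 lists, limma and edgeR called 0 in either single lesion against Vav Cre, while DESeq2 called 7 in KDM6B OE and 6 in Tet2 KO, and 28 and 26 had an unadjusted p under 0.05 with limma.

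The tested genes outside the set whose pattern over the 12 libraries was most like the mean of the 10 members were Parp8 (r = 0.893), Dtx4 (0.876), Usp48 (0.862), BC017643 (0.858) and Csf1r (0.853). That mean joins blocks of members that vary in opposite ways, so these values describe likeness to the average only.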

How the data were processed

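RNA was measured in 12 libraries of sorted LSK cells, 3 per genotype, made from 10-20 ng of RNA with a SMARTer v4 and Nextera kit, per the labels' protocols. The submitters' processing notes list TopHat2 2.0.10, HTSeq 0.6.0, edgeR 3.8.6 and the build mm10; the annotation and any strand setting were not given in the sources used. The authors deposited 1 table of 15366 genes whose values are a normalized signal, read counts scaled to an effective library size (CPM). From these values whole reads were recovered for 100% of entries within a tolerance of 1e-06 reads, and every gene had at least 10 reads in all. One read was worth 0.0373 to 0.0463 CPM.

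The main test was limma 3.58.1 (R 4.3.3) on log2(CPM + 1) with a mean trend, 1 mean per group, all 12 libraries and 8 residual degrees of freedom, for 13046 genes with CPM above 1 in at least 3 libraries (2320 were set aside; all 10 members passed). A fold change on this scale understates the change of low genes. Adjusted p-values are Benjamini-Hochberg over all genes tested. Ratios of subunits were tested with exact two-sided permutation tests. The alternatives were equal totals, a pseudocount of 0.25, no filter, edgeR 4.0.16 and DESeq2 1.42.0 on the recovered reads, a replicate block, a term for Y-linked transcripts, only the compared groups and leaving out each library; removal of a length and GC trend was added after seeing the data and used the 96.2% of tested genes with a length. Scripts were tested on simulated data.

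The members and lists were chosen with earlier results of these data known. All members, and up to 4 passing genes per list with the largest difference, are named, besides the constitutive counterparts, Tet2, Kdm6b and the 5 genes most alike in pattern; H2-Q5 and Ciita among them, given by library, were chosen after their values were seen. Positions and overlaps come from GENCODE M21 and promoters from RefSeq. Same-numbered Tet2 KO and Vav Cre libraries deviated together from their group means (r = 0.34, 0.34 and 0.30 over genes), so their numbers were read as pairs; no other pair of groups had all 3 r over 0.1. Some results are not reported here.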

Additional observations from a re-analysis of the deposited data

How the results depend on the processing

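No called member changed direction under any alternative run. In double lesion against Vav Cre the 3 members called became 0 with only the compared groups, and 0 to 6 when single libraries were left out. Tapbp missed the threshold without any 1 of the double lesion libraries or Vav Cre replicate 1 or 2. In KDM6B OE against Vav Cre the 0 members became 0 to 3 when single libraries were left out, and in Tet2 KO against Vav Cre 0 to 1; the highest values came without Vav Cre replicate 3. Over all genes the same fits called 22 to 1934 in KDM6B OE (78 with all libraries) and 1 to 307 in Tet2 KO (4 with all libraries). Over the 6 transgenic libraries against the other 6, the 1 member called became 0 without the filter, 0 with edgeR, 2 with DESeq2, 4 with the replicate block, 3 with a term for Y-linked transcripts, 2 with the length and GC trend removed, and 0 to 6 without single libraries, where 94 to 2771 of all genes were called (568 with all libraries). In the other comparisons the count of members was 0 under every alternative run. Over all genes, the 1947 called in double lesion against Vav Cre became 289 with only the compared groups and 304 to 3585 without single libraries; totals made equal gave 1285 higher and 763 lower, and the length and GC trend removed gave 612 higher and 1237 lower, against 958 higher and 989 lower. Outside Tet2 KO and Vav Cre, replicate numbers were not read as pairs: over all groups 10 of 18 same-numbered pairs had r over 0.1 (range -0.15 to 0.39), all 6 pairs of replicate 1 among them, while different-numbered pairs ran from -0.36 to 0.25. With the replicate block double lesion against Vav Cre had 4 members called, Nlrc5 being the 1 gained (adjusted p = 0.0231, limma), and 2699 genes, the transgenic comparison 1516 genes and KDM6B OE against Vav Cre 284. The cause of these shifts was not tested. A count of 3 reads is at most 0.139 CPM, well under every member's level.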

Other observations

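The log2 ratio of Tap1 to Psmb9, which are read in opposite directions from 1 shared start region, was chosen after its values were seen and is given without a test. It was 0.56, 0.21 and -0.02 in double lesion, 0.20, 0.04 and -0.24 in KDM6B OE, -0.04, -0.61 and 0.11 in Tet2 KO, and -0.89, -1.18 and -0.06 in Vav Cre. The lesion libraries lay between -0.61 and 0.56, and 2 of the 3 Vav Cre libraries lay below all of them, while Vav Cre replicate 3 lay among them. Tap1 and Psmb9 overlap on opposite strands, with 4.19% of the 50-base stretches of Psmb9 also in Tap1, so reads from the overlap could not be assigned by strand.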
